A study of Homo sapiens with 16 samples.

Results

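The proteasome subunits of MCF10A cells were followed over a time course of HER2 kinase inhibition. Members were taken by symbol, as every row of the intensity table named PSMA, PSMB, PSMC or PSMD with a number, without the immunoproteasome subunits PSMB8, PSMB9 and PSMB10. This gave 37 rows of 34 genes, out of 20589 rows with 18190 symbols. By class there were 10 rows of 8 genes for the alpha ring, 7 rows of 7 genes for the beta ring, 6 rows of 6 genes for the ATPases and 14 rows of 13 genes for the non-ATPase subunits and chaperones. PSMA1, PSMA7 and PSMD4 each had 2 rows. PSMD12 and PSMB11 were not analysed here. Tests were limited to the 11957 rows whose detection p was below 0.05 on 3 or more arrays out of 16. Of the member rows, 35 rows of 33 genes passed. The row of PSMA8, a testis form of an alpha subunit, and the dimmer row of PSMD4 were not above background on any array.

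MCF10A is a nontransformed human mammary epithelial line that depends on insulin and EGF, and it was grown here in serum-free medium with both. CP724,714, a small molecule that blocks the HER2 kinase, was added at 1 µM, and parallel cultures were harvested every 3 hours from 0 to 45 h for Illumina bead arrays. The 0 h array is labelled as untreated and the other 15 as treated, and each time point has 1 array. All cultures are of 1 line. The medium was changed when treatment began, and in the absence of a parallel untreated course the inhibitor, the fresh medium and time in culture cannot be told apart. Consecutive arrays were grouped into windows of 4 (0 to 9, 12 to 21, 24 to 33 and 36 to 45 h). The arrays of a window are not replicates, so an SD over them (n = 4) also holds change within the window, and the p-values of limma's moderated tests measure differences against that spread.

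The arrays had median intensities of 210 to 254, with 50.1% to 52.9% of rows detected. The inferred background level was 173.6 to 183.5 on the arrays of 24 to 33 h and 165.8 to 184.9 on those of 36 to 45 h. Without background correction the median change of the member rows between these windows was -0.28, and with it -0.31. The part of the level itself in the results was not tested. Of 8 markers of basal mammary epithelium, 6 (KRT5, KRT17, CDH1, ITGB4 and S100A2 among them) were above background on all 16 arrays, TP63 on 10 and KRT14 on 1. Of the 5 fibroblast markers, 4 (COL1A1, COL1A2, COL3A1 and PDGFRB) were not above background on any array, and neither were CDH5 and VWF of the 3 endothelial, ESR1 and PGR of the 3 luminal or CD3D of the 3 leukocyte markers, while CD68 was detected on all 16. Some markers of the basal list and of other cell types moved with the windows. From 24 to 33 h to 36 to 45 h TP63 rose by 1.15, ITGB4 by 0.99 in its brighter row and KRT17 by 0.73 (adjusted p = 2.99e-05, 1e-05 and 0.0272, limma). KRT5, CDH1, S100A2 and the dimmer row of ITGB4 did not pass at this step. The summed intensity of the basal list was 82294 to 87107 and then 93915 to 106256. PECAM1, the third endothelial marker, was higher at 12 to 21 h than at 0 to 9 h by 0.87 log2 units (adjusted p = 0.000298, limma), and the summed intensity of the endothelial list was 150 to 178 and then 208 to 283. GATA3, the third luminal marker, was higher at 36 to 45 h than at 24 to 33 h by 0.66 (adjusted p = 0.049, limma), and the summed intensity of the luminal list was 177 to 226.3 and then 226.5 to 291. The leukocyte list went from 895 to 1119 to 1170 to 1334 at the same time, with CD68 at 0.38 (adjusted p = 0.0642, limma). The part of these markers in the results below was not tested.

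The proteasome is the barrel-shaped protease that degrades proteins tagged with ubiquitin. Its core particle stacks rings of alpha subunits, which gate the entry, around rings of beta subunits, of which PSMB5, PSMB6 and PSMB7 carry the catalytic sites. The regulatory particle caps the core: the PSMC ATPases unfold the substrate and thread it into the core, the large PSMD1 and PSMD2 subunits and the PSMD4 receptor belong to the base with them, and the other PSMD subunits form the lid, in which PSMD14 removes ubiquitin. PSMD5, PSMD9 and PSMD10 are chaperones that help to assemble the base and are not part of the finished particle. Cells make the subunits in fixed proportions, and the transcription factor NFE2L1 is known to raise many of the genes together when the proteasome is impaired.

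Most subunits stayed level or were slightly higher up to 33 h and were lower from 36 h on. Of the 35 member rows, 30 (85.7%) varied with time (adjusted p below 0.05 for a spline of time in limma, moderated F), where 54.6% of all tested rows did. These were 9 of 9 alpha, 4 of 7 beta, 6 of 6 ATPase and 11 of 13 non-ATPase rows. The rows that did not pass were PSMB4 (adjusted p = 0.135, limma), PSMB5 (0.381), PSMB7 (0.0812), PSMD5 (0.287) and PSMD9 (0.298). In the plot of centred levels by class, the median of the 33 genes lay between -0.06 and 0.05 log2 units up to 12 h, between 0.04 and 0.17 from 15 to 33 h, and between -0.29 and -0.18 from 36 to 45 h. The median of all tested rows lay between -0.0122 and 0.0047 on every array.

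**Figure D1:**
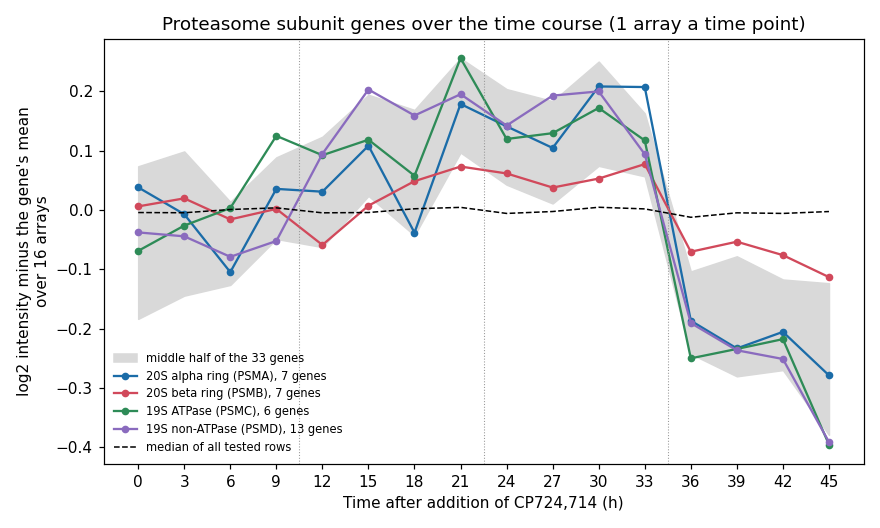
Level of proteasome subunit genes over time: the x axis is time after addition of CP724,714 in hours and the y axis is the log2 intensity minus the gene's mean over 16 arrays. Coloured points are the means of each class (7 alpha, 7 beta, 6 ATPase and 13 non-ATPase genes), the grey band is the interquartile range of the 33 genes, the dashed line is the median of all tested rows, and dotted lines part the 4 windows; all 4 classes drop between 33 and 36 h, the beta ring from 0.08 to -0.07 and the ATPases from 0.12 to -0.25.

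The drop fell between 2 consecutive arrays. From 33 to 36 h, 32 of the 33 genes were lower and 1 was higher, with a median step of -0.25 log2 units, whereas 50.7% of all tested rows were lower at this step and their median step was -0.01. The gene that was higher was PSMD4, at 12.24 and then 12.32. At no other step did the direction hold for more than 24 of the 33 genes: 24 were higher from 6 to 9 h and from 27 to 30 h, and 24 were lower from 30 to 33 h. Each step compares 1 array with 1 array, so it has no test.

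**Figure D2:**
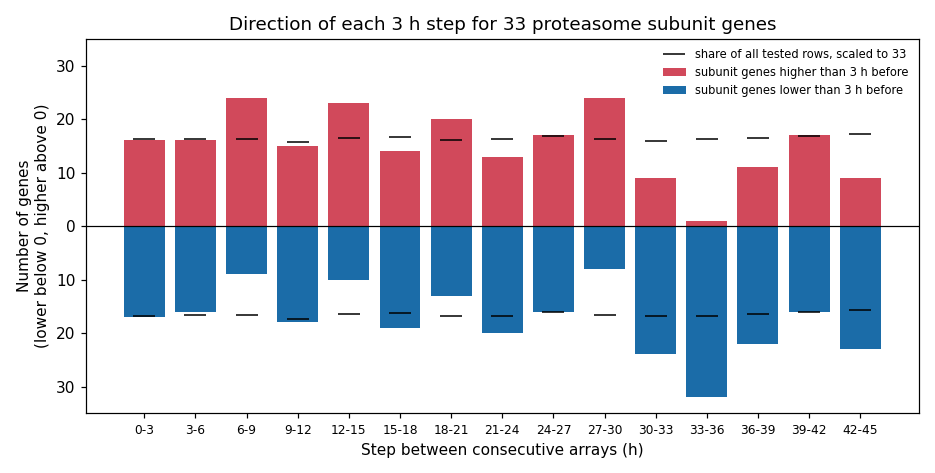
Direction of each step between consecutive arrays: the x axis gives the step in hours and the y axis the number of the 33 subunit genes that were higher (red, above 0) or lower (blue, below 0) than 3 h before. Black dashes give the share of all tested rows with that direction, scaled to 33 genes; at the step from 33 to 36 h 32 genes were lower.

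Between 24 to 33 h and 36 to 45 h, 26 of the 35 member rows (74.3%) fell and 0 rose at an adjusted p under 0.05 (limma, Benjamini-Hochberg over all 11957 rows), against 18.7% of all tested rows that fell and 19.3% that rose. The median change of the member rows was -0.31 log2 units and that of all tested rows was -0.00215. With median scaling of the arrays in place of quantile normalization, 32 member rows fell and 0 rose, with a median of -0.48, against 24.5% and 14.4% of all rows. In 28 of the 35 rows (80%) every array of 36 to 45 h was below every array of 24 to 33 h, which held for 22.6% of all tested rows. A smaller share of expressing cells and less transcript in each cell cannot be told apart in such bulk RNA, and the values are relative to all other transcripts on the array.

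The ATPases fell together, as 6 of 6, by 0.20 to 0.91. PSMC4, one of the ATPases of the base ring, fell most of all members. Its log2 intensity was 10.73, 10.58, 10.67 and 10.63 at 24, 27, 30 and 33 h and 9.89, 9.93, 9.98 and 9.16 at 36, 39, 42 and 45 h. The windows did not overlap, and the 45 h array was the lowest of the series. The difference was -0.91 (standard error 0.18, adjusted p = 0.000697, limma), 1.88-fold lower. Earlier values were 10.62, 10.81, 10.60 and 10.98 from 0 to 9 h and 10.54, 10.60, 10.01 and 10.95 from 12 to 21 h, so 18 h was a single low array before the drop. PSMC3, another ATPase of the ring, read 12.72, 12.78, 12.71 and 12.68 at 24 to 33 h and 12.31, 12.25, 12.24 and 12.23 at 36 to 45 h, a tight pair of levels that differed by -0.47 (standard error 0.06, adjusted p = 8.48e-06, limma). PSMC2, PSMC1, PSMC6 and PSMC5 had changes of -0.33, -0.28, -0.26 and -0.20.

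Of the 7 lid genes among the members 6 fell, with a median change of -0.52, against -0.31 for the ATPases. SEM1, a lid subunit outside the members, had a change of -0.17 that did not pass (adjusted p = 0.185, limma). PSMD11, a lid scaffold subunit that also limits how many capped particles form, read 8.08, 7.97, 8.05 and 8.15 at 24 to 33 h and 7.24, 7.13, 7.44 and 6.89 at 36 to 45 h. The second window lay wholly below the first, and the difference was -0.89 (standard error 0.15, adjusted p = 0.000129, limma), 1.85-fold lower. The row was dim, with intensities before correction of 254 to 339 at 36 to 45 h. Over the other settings the change kept its call, but its size ran from -0.97 to -0.47. PSMD13, PSMD3, PSMD14, PSMD6 and PSMD7 fell by 0.53, 0.53, 0.52, 0.44 and 0.40. PSMD14, the deubiquitinase, read 12.35, 12.33, 12.42 and 12.32 and then 11.95, 11.74, 11.89 and 11.77. Its 4 late values are all lower than its 4 earlier ones (adjusted p = 4.03e-05, limma). PSMD8 had a change of -0.16 that did not pass (adjusted p = 0.0703, limma), although its 4 late arrays lay below the 4 before.

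Of the large base subunits, PSMD1 fell by 0.86 (standard error 0.10, adjusted p = 3.81e-06, limma) and PSMD2 by 0.27 (adjusted p = 0.0145, limma). PSMD1 read 11.28, 11.36, 11.42 and 11.46 at 24 to 33 h and 10.72, 10.57, 10.49 and 10.29 at 36 to 45 h. PSMD2 was lower on average but its windows overlapped, since the 36 h array, at 11.70, was above the 24 h array, at 11.63. Of the base chaperones, PSMD10, known as the oncoprotein gankyrin, fell by 0.24 (adjusted p = 0.0113, limma), while PSMD5 and PSMD9 had changes of -0.20 and -0.50 that did not pass (adjusted p = 0.132 and 0.14, limma).

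In the alpha ring 7 of 9 rows fell. PSMA4 read 11.91, 11.83, 11.86 and 11.92 at 24 to 33 h and 11.37, 11.32, 11.44 and 11.01 at 36 to 45 h, a difference of -0.60 (standard error 0.10, adjusted p = 0.000113, limma), 1.51-fold lower. Its late arrays all lay below the earlier ones, with 45 h again the lowest. PSMA3 fell by 0.54, PSMA5 by 0.45, PSMA7 by 0.43 in its brighter row and PSMA6 by 0.33. The dimmer row of PSMA7 had a change of -0.27 (adjusted p = 0.23, limma) and PSMA2 one of -0.20 (adjusted p = 0.278, limma). PSMA1 fell in both rows, by 0.48 in the row of a single probe and by 0.19 in the row of combined values. The deposited detection p of the combined row was under 0.05 on only 4 of the 16 arrays, although its intensity before correction was between 3869 and 6353 on all of them.

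The beta ring had the smallest median change of the 4 classes, at -0.18, with 4 of 7 rows lower: PSMB3 by 0.31, PSMB2 by 0.26, PSMB1 by 0.23 and PSMB6 by 0.18. Of the 3 catalytic subunits only PSMB6 passed. PSMB5, which carries the chymotrypsin-like site, read 13.32, 13.31, 13.34 and 13.34 at 24 to 33 h and 13.33, 13.31, 13.43 and 13.21 at 36 to 45 h, with a difference of -0.01 (95% interval -0.15 to 0.13). PSMB7, which carries the trypsin-like site, had a difference of -0.06 (95% interval -0.16 to 0.04), PSMD4 one of 0.03 (-0.11 to 0.16) and PSMB4 one of 0.10 (-0.01 to 0.21). These intervals leave out a fall as large as that of PSMB3 or of any lid gene that passed. Under median scaling, however, PSMB5, PSMB7 and PSMD4 also passed as lower, with changes of -0.21, -0.22 and -0.23 and adjusted p = 0.0473, 0.0103 and 0.0229 (limma), and PSMB4 did not pass in either direction.

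**Figure D3:**
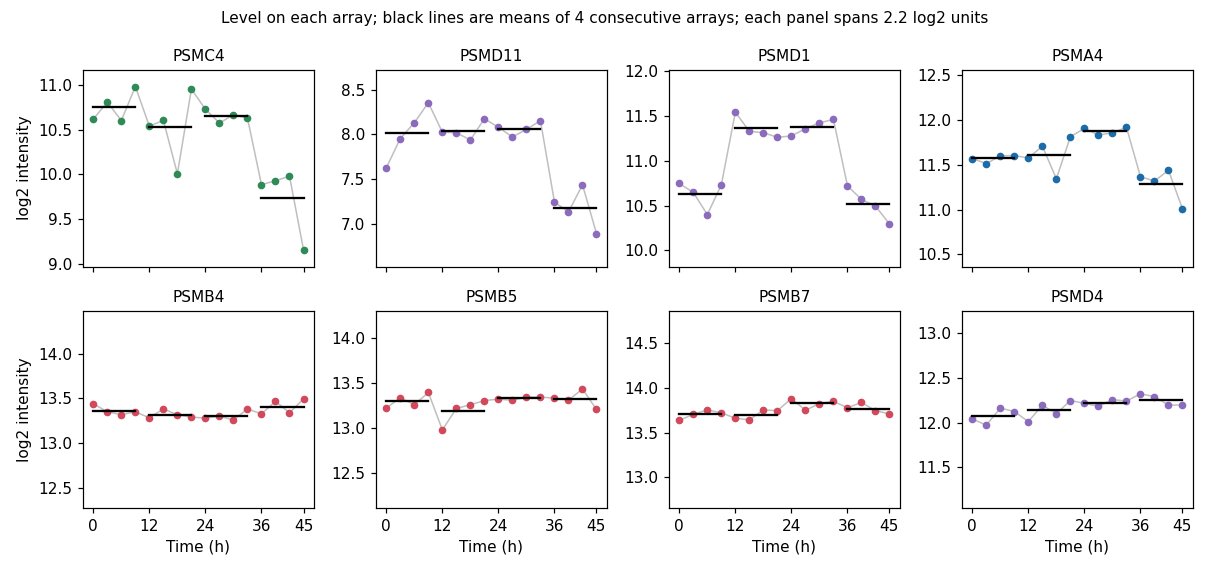
Log2 intensity of 8 subunit genes on each of the 16 arrays against time in hours: the upper row shows PSMC4, PSMD11, PSMD1 and PSMA4 and the lower row PSMB4, PSMB5, PSMB7 and PSMD4. Points are single arrays, black lines are means of the 4 arrays of a window, and every panel spans the same range; the upper genes drop between 33 and 36 h and PSMD1 also steps up between 9 and 12 h, while the lower genes stay within 1.37-fold of their own lowest array.

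The rise before this drop came between the first and second windows. From 0 to 9 h to 12 to 21 h, 11 member rows (31.4%) rose and 0 fell, against 15.1% of all tested rows that rose and 14.4% that fell (limma). The median change was 0.07 log2 units for member rows and -0.000601 for all rows. The rows that rose were 6 non-ATPase rows (PSMD1, PSMD9, PSMD3, PSMD13, PSMD14 and PSMD2), 2 ATPase rows (PSMC3 and PSMC1), 2 alpha rows (PSMA5 and PSMA3) and 1 beta row (PSMB1). Another 7 rows had an unadjusted p under 0.05 without passing, so that 18 of the 35 did in all. With median scaling 20 rows rose and 0 fell, against 23.5% and 8.61% of all rows, and 7 rose without the 3, 15, 18 or 21 h array.

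PSMD1 rose most, by 0.73 (standard error 0.10, adjusted p = 4.87e-05, limma), 1.66-fold. It read 10.75, 10.65, 10.40 and 10.73 from 0 to 9 h and 11.54, 11.33, 11.31 and 11.26 from 12 to 21 h, a step with no overlap that fell between the 9 and 12 h arrays. Its level at 36 to 45 h was back near that of 0 to 9 h, with a difference of -0.11 (adjusted p = 0.415, limma). PSMD3 rose by 0.47 (standard error 0.15, adjusted p = 0.0241, limma), PSMA5 by 0.38 (standard error 0.09, adjusted p = 0.0043, limma) and PSMC3 by 0.33 (standard error 0.06, adjusted p = 0.000499, limma). PSMC3 stepped between the same arrays as PSMD1, from 12.49 at 9 h to 12.99 at 12 h, whereas PSMA5 climbed earlier, from 12.99 at 0 h through 13.08 and 13.27 to 13.57 at 9 h. PSMD9 rose by 0.72 (standard error 0.26, adjusted p = 0.0432, limma), after the early fall given below, and this call was lost in 12 of 22 other settings. The call of PSMA3 was lost in 17 of 23.

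**Figure D4:**
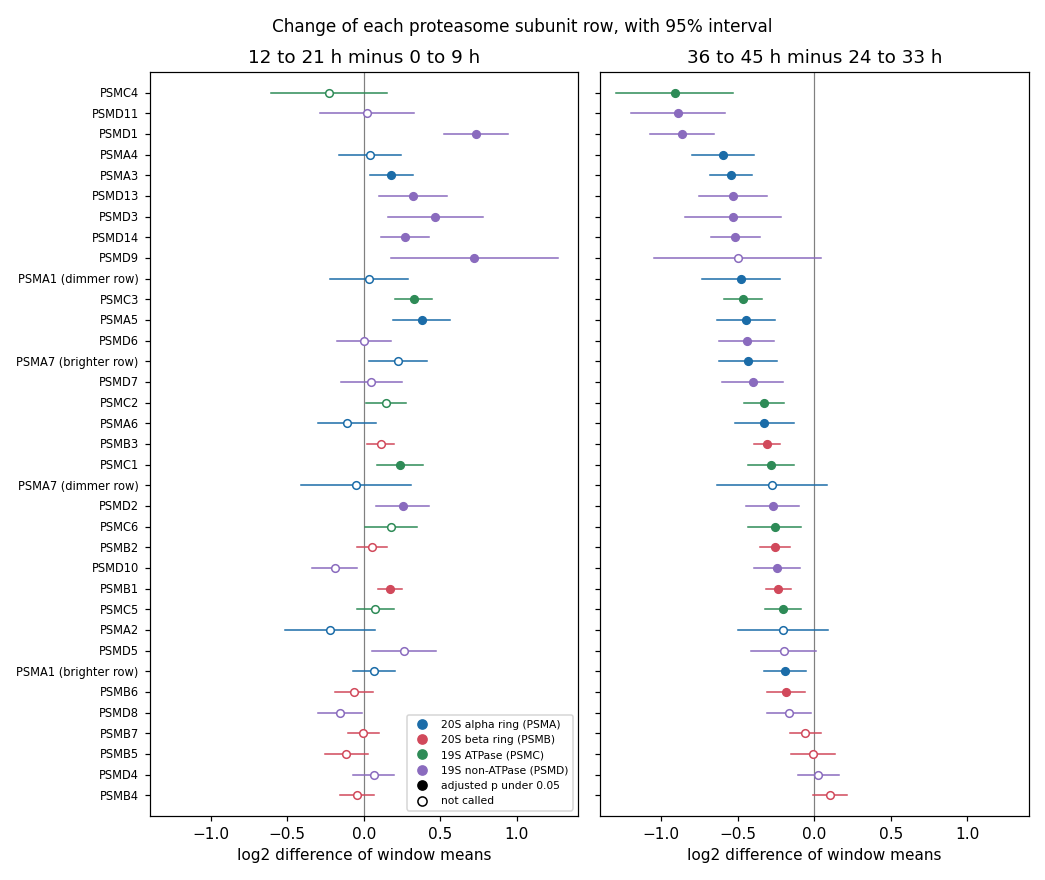
Change of each of the 35 tested rows from 0 to 9 h to 12 to 21 h (left) and from 24 to 33 h to 36 to 45 h (right): the x axis is the log2 difference of the means of 4 arrays, horizontal lines are 95% intervals from limma, colours mark the 4 classes and filled points have an adjusted p under 0.05. On the right 26 points are filled and lie left of 0; on the left 11 are filled and lie right of 0.

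Between 12 to 21 h and 24 to 33 h there were 0 calls among the members (limma), as for nearly all rows of the array (0% higher and 0.0251% lower), and 4 member rows had an unadjusted p under 0.05.

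Within the first 9 hours few member rows were called. The comparison was of 6 and 9 h with 0 and 3 h, in a fit of 8 pairs of arrays. In it 2 member rows (5.71%) rose and 3 (8.57%) fell, below the 13.2% and 11.5% of all tested rows (limma). The chaperone PSMD9 read 7.56 and 7.51 at 0 and 3 h and 6.63 and 6.16 at 6 and 9 h, a difference of -1.14 (standard error 0.23, adjusted p = 0.00183, limma). It was not above background at 9 h and was on the other 15 arrays, and by 12 h it read 7.44 again. PSMA2 read 10.94 and 10.64 at 0 and 3 h and 10.21 and 10.12 at 6 and 9 h, a difference of -0.63 (standard error 0.12, adjusted p = 0.000921, limma). Unlike PSMD9 it did not return, and every later array lay between 10.01 and 10.46. PSMD10 fell by 0.25 (adjusted p = 0.0377, limma), a call lost in 11 of 23 other settings, median scaling among them. PSMA5 and PSMC1 rose by 0.38 and 0.25 (adjusted p = 0.00571 and 0.0103, limma).

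Set against the first 4 arrays, the last 4 were lower in 17 of the 35 member rows (48.6%) and higher in 1 (PSMD4), where 15% of all tested rows were lower and 16.2% higher. With median scaling 7 member rows were lower and 2 higher (PSMD4 and PSMB7), against 8.61% and 23.4% of all rows. The median change was -0.22 and with median scaling -0.08. In the ATPases the largest changes were those of PSMC4, at -1.01 (standard error 0.18, adjusted p = 0.000386, limma) and 2.02-fold lower, and PSMC3, at -0.29 (standard error 0.06, adjusted p = 0.00108, limma). Among the non-ATPase genes they were those of PSMD11, at -0.84 (standard error 0.15, adjusted p = 0.000311, limma), PSMD10, at -0.43 (standard error 0.07, adjusted p = 0.000203, limma), and PSMD8, at -0.37 (standard error 0.07, adjusted p = 0.000461, limma). The change of PSMD11, a dim row, ran from -0.97 to -0.45 over the other settings. When the step from 21 to 24 h was taken out, by adding only the changes between the first and second and between the third and last windows, 10 rows were lower and 0 higher, against 6.26% and 7.26% of all rows.

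In the beta ring the largest net changes were those of PSMB6, at -0.25 (standard error 0.06, adjusted p = 0.00356, limma), and PSMB3, at -0.22 (standard error 0.04, adjusted p = 0.0007, limma). In the alpha ring they were those of PSMA7, at -0.52 in the dimmer row (adjusted p = 0.0267, limma), and of PSMA2, at -0.37. That of PSMA2 missed the threshold (adjusted p = 0.0546, limma). The brighter row of PSMA7 had -0.31 (adjusted p = 0.0144, limma). Its dimmer row had intensities before correction of only 220 to 328. The change of this dimmer row ran from -0.56 to -0.22 over the other settings, and its call was lost in 5 of 23. PSMD4, the ubiquitin receptor, read 12.04, 11.97, 12.16 and 12.12 at 0 to 9 h and 12.32, 12.29, 12.20 and 12.20 at 36 to 45 h. It was the only member called higher, by 0.18 (standard error 0.06, adjusted p = 0.0427, limma), and this call was lost in 13 of 23 other settings. PSMA1 disagreed between its rows, with 0.05 in the row of combined values and -0.23 in the single-probe row, and neither passed (adjusted p = 0.566 and 0.167, limma).

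Over the 16 arrays most member rows moved alike. The correlation of a member row with the mean of the other member genes had a median of 0.759, and 26 of 35 rows were above 0.5. For the other 11922 tested rows against the mean of the member genes the median was 0.0123, and 22% were above 0.5. These points share arrays, normalization and the large step at 36 h, and are given as a description. PSMA3 (0.962), PSMB2 (0.935), PSMB3 (0.932), PSMC2 (0.914) and PSMD13 (0.909) were nearest to the mean of the rest. PSMB4 (-0.65), PSMD4 (-0.125) and PSMB5 (-0.0799) were the 3 below 0.

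The genes outside the family most like the mean of the members, out of 11226 ranked by correlation over the 16 arrays, were PRPS1 (0.985), SNRPF (0.983), CKLF (0.972), C1QBP (0.972), TIMELESS (0.970), PPIL5 (0.970), CDKN3 (0.969), SMYD2 (0.968), H2AFZ (0.965) and NOLA2 (0.963). PRPS1 makes the sugar phosphate precursor of nucleotides, SNRPF is a core protein of the spliceosome, TIMELESS protects replication forks, CDKN3 is a cell cycle phosphatase, H2AFZ is a histone variant and NOLA2 is part of the small RNA complexes that modify ribosomal RNA. Most unlike it were the heat shock protein HSPB1 (-0.977), the peroxisomal and mitochondrial enzyme ECH1 (-0.974) and DNAL4 (-0.974). After 33 h PRPS1 changed by -0.99, TIMELESS by -1.29 and HSPB1 by 0.59 (adjusted p = 5.35e-07, 4.62e-07 and 2.95e-07, limma).

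The DNA around the starts of the member genes was searched for short sequence elements. RefSeq promoter windows of GRCh38.p14, from 250 bases before to 50 after a start, were at hand for 29 of the 34 genes, as 35 windows. None was at hand for PSMA7, PSMB1, PSMB6, PSMB7 or PSMD4. The core of the antioxidant response element, TGACNNNGC on either strand, to which NFE2L1 and NFE2L2 bind with small MAF proteins, was in 8 of the 35 windows (22.9%) and in 13.3% of all 35116 windows of the table. The CCAAT box, searched as CCAAT on either strand, was in 16 windows (45.7%) and in 34.6% of all windows. The 8 genes with the first element had a median change of -0.52 from 24 to 33 h to 36 to 45 h and 6 of them fell. The 20 tested genes without it had a median of -0.30 and 16 fell. For the CCAAT box the 16 genes with it had a median of -0.37 and 13 fell. The 12 tested genes without a CCAAT box had a median of -0.30 and 9 fell. These differences were not tested. The motifs were searched separately and may overlap. A match is a run of letters and was not tested as a binding site.

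The 250 bases before the start are shown for PSMA4, PSMB3 and PSMD3, which fell after 33 h and hold the element in this stretch, 5′ to 3′ on the strand of the gene with the match in capitals. They lie at chr15:78540536-78540785, chr17:38752491-38752740 and chr17:39980557-39980806, all on the plus strand, and the match begins at -126, -104 and -37 from the start. PSMA4 has 3 promoter windows with different starts, and only 1 of them holds the match. PSMD3 holds a second match on the opposite strand, 34 bases into the transcribed stretch at chr17:39980830-39980856, shown after it with its flanks.
PSMA4: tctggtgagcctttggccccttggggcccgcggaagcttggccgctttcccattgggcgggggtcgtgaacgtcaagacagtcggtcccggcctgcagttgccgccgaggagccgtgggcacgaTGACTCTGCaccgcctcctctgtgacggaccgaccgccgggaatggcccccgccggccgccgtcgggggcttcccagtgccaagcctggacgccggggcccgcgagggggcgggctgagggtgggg
PSMB3: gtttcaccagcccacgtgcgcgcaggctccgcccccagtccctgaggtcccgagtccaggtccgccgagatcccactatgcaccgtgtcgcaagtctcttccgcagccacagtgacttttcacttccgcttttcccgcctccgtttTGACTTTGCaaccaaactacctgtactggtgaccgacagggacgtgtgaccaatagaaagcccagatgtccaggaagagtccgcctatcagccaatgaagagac
PSMD3: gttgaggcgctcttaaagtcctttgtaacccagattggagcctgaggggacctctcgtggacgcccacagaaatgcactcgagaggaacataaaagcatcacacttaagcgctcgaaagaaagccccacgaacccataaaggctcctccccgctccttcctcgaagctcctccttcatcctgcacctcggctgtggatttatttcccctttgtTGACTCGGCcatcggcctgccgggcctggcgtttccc
PSMD3, second: gtttgcagctGCTCCGTCAtcgtgcgg

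The other 5 genes with a match are shown by the match and up to 10 bases on each side, on the strand of the gene, so that a match on the opposite strand reads as its reverse complement. PSMC4 and PSMD1, which fell by 0.91 and 0.86, hold it 28 and 40 bases into the transcribed stretch, at chr19:39971182-39971210 and chr2:231056896-231056916, both on the plus strand. PSMC5 holds it in only 1 of its 2 promoter windows, at -57 from the start, at chr17:63827654-63827682, also on the plus strand. PSMD5 and PSMD9, which were not called after 33 h, hold it at chr9:120843038-120843066 on the minus strand and, as 2 matches, at chr12:121888631-121888659 and chr12:121888678-121888706 on the plus strand. PSMD11 and PSMD14 hold no match in this window.
PSMC4: acagaggccgGCTTGGTCActatggagga
PSMC5: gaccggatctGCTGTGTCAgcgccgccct
PSMD1: aggaggcgacTGACTGAGCag
PSMD5: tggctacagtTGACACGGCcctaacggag
PSMD9, first: cgctactcctGCCGGGTCAccacaggcgc
PSMD9, second: cggcttccggTGACCCAGCtccgccctaa

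Other genes of the pathway were read from 7 lists with 48 genes, of which 44 were on the array and 41 were tested by 1 row each. After 33 h, 15 of the 41 fell and 2 rose, with a median of -0.18 (limma), where 18.7% of all tested rows fell and 19.3% rose, and the counts of single lists below stand against the same shares. From the first to the second window 13 rose and 1 fell, against 15.1% and 14.4% of all rows. Among the activators that can replace the cap, PSME3, which caps the core in the nucleus, read 10.22, 10.42, 10.43 and 10.18 at 24 to 33 h and 9.40, 9.26, 9.29 and 9.22 at 36 to 45 h, a difference of -1.02 (standard error 0.10, adjusted p = 5.35e-07, limma). PSME2 fell by 0.34 and its partner PSME1 rose by 0.34 in its brighter row (adjusted p = 0.000202 and 0.000186, limma), so the pair moved apart in these rows. The dimmer row of PSME1 had a change of 0.10 that did not pass (adjusted p = 0.67, limma). PSME4 and the inhibitor PSMF1 did not pass.

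Among 4 tested assembly chaperones of the core and base, PSMG1 fell by 0.91 (standard error 0.08, adjusted p = 2.75e-07, limma) and POMP by 0.41 (standard error 0.05, adjusted p = 1.56e-05, limma). PSMG1 works with PSMG2 to build the alpha ring, and PSMG2 had a change of -0.06 that did not pass (adjusted p = 0.299, limma). A further list of 7 tested genes held proteins that bind the particle, with the lid subunit SEM1. In it the deubiquitinases UCHL5 and USP14 fell by 0.81 and 0.67 and the ubiquitin receptor ADRM1 by 0.35 (adjusted p = 0.0119, 0.00228 and 0.0179, limma). USP14 had risen by 1.02 and UCHL5 by 0.87 from the first to the second window. USP14 stepped from 7.05 at 9 h to 8.68 at 12 h. UCHL5 climbed within the first window, from 9.09 and 9.12 at 0 and 3 h to 10.00 and 10.66 at 6 and 9 h. SEM1, a small lid subunit, was the single gene of the lists that fell at that time, by 0.34 (adjusted p = 0.0139, limma).

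Of the immunoproteasome subunits, PSMB10 fell by 0.21 (adjusted p = 0.00874, limma), PSMB8 did not pass and PSMB9 was above background on 1 array. Of 10 shuttle and segregase genes 5 fell. VCP, the ATPase that extracts ubiquitinated proteins, was at -0.48, RAD23B at -0.36, UBQLN4 at -0.35 and NSFL1C at -0.33. UBQLN1 was at -0.19 in its brighter row. Its dimmer row had a change of -0.19 that did not pass (adjusted p = 0.466, limma). Of the ubiquitin genes UBB fell by 0.45 (adjusted p = 0.00175, limma), and RPS27A, which encodes ubiquitin fused to a ribosomal protein, had a change of -0.05 that did not pass (adjusted p = 0.256, limma).

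In the list of NFE2L1 and its partners, 1 of 9 tested genes rose and 1 fell, with a median of 0.11. NFE2L1 read 11.21, 11.05, 10.15 and 9.70 at 0, 3, 6 and 9 h, between 9.90 and 10.21 from 12 to 33 h, and 11.35, 11.33, 11.45 and 11.33 at 36, 39, 42 and 45 h. It was thus higher from the same array on from which most subunits were lower. The mean of 36 to 45 h was above that of 24 to 33 h by 1.27 (standard error 0.22, adjusted p = 0.000253, limma), 2.42-fold. NFE2L3, a related factor, was above background on all 4 arrays of 24 to 33 h and on 0 of those of 36 to 45 h. The fit, which used its values below background as they were, gave -0.74 (standard error 0.18, adjusted p = 0.00293, limma). It was at least 1.32-fold lower when the lowest detected intensity of each array stands for the undetected values, a bound without a test. NFE2L2, KEAP1, AKIRIN2, NGLY1 and the small MAF genes MAFF, MAFG and MAFK did not pass, and DDI2 was not above background on any array.

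**Figure D5:**
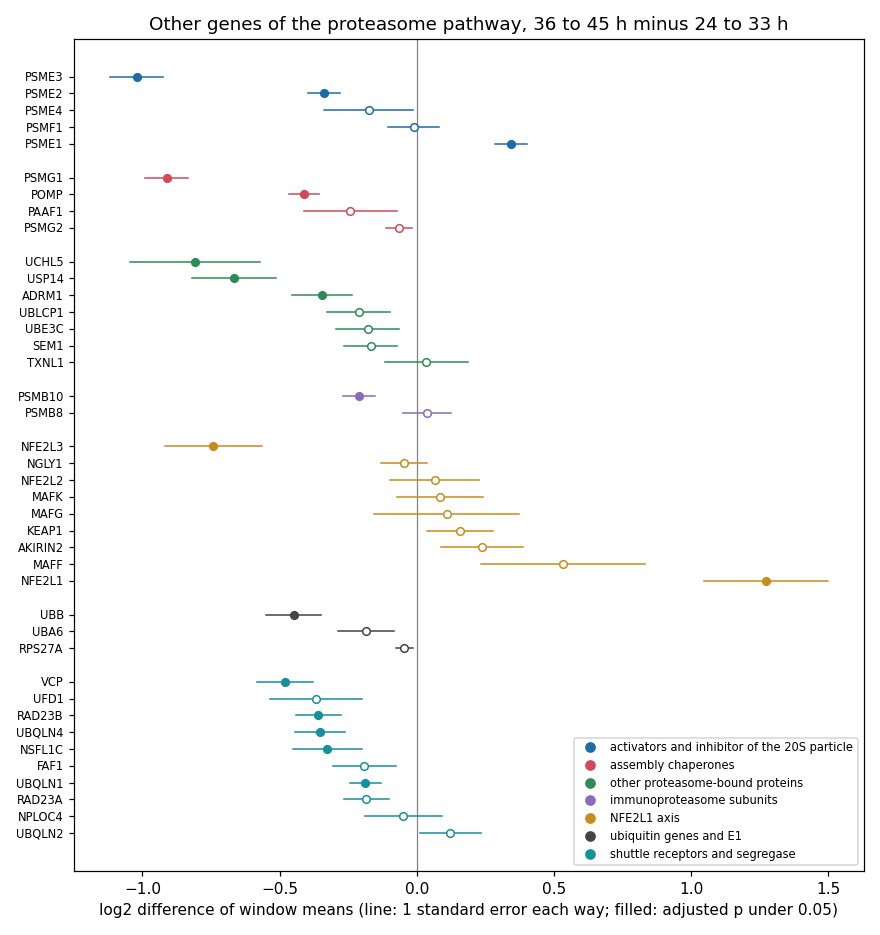
Change of the other genes of the proteasome pathway, all tested genes of the lists but 1, from 24 to 33 h to 36 to 45 h: the x axis is the log2 difference of the means of 4 arrays, lines reach 1 standard error each way, colours mark the 7 lists and filled points have an adjusted p under 0.05 in limma. PSME3, PSMG1 and UCHL5 lie farthest to the left and NFE2L1, at 1.27, farthest to the right.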

How the data were processed

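MCF10A RNA from 16 time points was measured on Illumina human Ref8v2 arrays. The authors deposited linear bead intensity that had not been normalized. The authors also deposited, for each row of each array, a detection p-value. The summary software, a background correction and the annotation build are not given in the sources used here. The methods name quantile normalization. From the intensities, the background was corrected with normexp, with its level inferred from the detection p of the 19092 single-probe rows (p a whole multiple of 1 in 708 within 0.001), because 1497 rows hold combined values. An offset of 16 was added before quantile normalization and log2 transformation in R 4.3.3 with limma 3.58.1, which compresses the changes of dim rows. Tests used limma's moderated statistics with an intensity trend, Benjamini-Hochberg adjustment over 11957 rows and calls under 0.05: a natural spline of time with 3 degrees of freedom (12 residual), 4 windows of 4 arrays and 8 pairs of arrays. All are two-sided or F-tests. Figures used matplotlib 3.10.9.

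The members, gene lists, markers and motifs were chosen with earlier results of these data known. Any member could be named, with full values for the largest changes of each class and contrast and for genes whose rows disagree, then the called genes of each pathway list, the 10 most and 3 least similar other genes. The roles within the beta ring and the cap were assigned after values were seen. The row with the highest mean intensity stands for a gene with several rows. Probe levels were not compared between genes, and the number of arrays limits the precision. Alternatives were other background, scaling, filter, prior, curve and contrast settings and leaving out each array. A gene of the pathway lists and one of the marker lists are counted but not reported here.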

Additional observations from a re-analysis of the deposited data

How the results depend on the processing

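The fall after 33 h was the steadiest result: 23 to 27 member rows fell and 0 rose with each array left out in turn, and 22 of the 26 rows kept their call in every setting run for them. The exceptions were the combined row of PSMA1 (lost with no filter, no intensity trend or without the 27, 30, 33 or 42 h array), PSMB6 (no intensity trend or without 33 or 45 h), PSMC6 (without 30 or 36 h) and PSMD2 (without 30 or 45 h). Of the 11 early rises, PSMA5, PSMC3, PSMD1 and PSMD14 kept theirs in every setting, and no call reversed its direction. Median scaling gave 20 rises from the first to the second window, and for the last against the first window 2 rises and 7 falls. It moved the median changes to 0.23, 0.16 and -0.48 for the 3 successive steps between windows and to -0.085 for the last against the first, and the median of all rows to 0.09, 0.09, -0.06 and 0.07. Cyclic loess, or rows detected on all 16 arrays, gave 1 fall from the first to the second window (PSMD10). The single net rise, of PSMD4, became 0 with cyclic loess, without a filter, without the intensity trend, with only the 8 arrays compared, without the step from 21 to 24 h and for 0 and 3 h against 42 and 45 h. Without the step from 21 to 24 h the net falls were 10. Without the intensity trend the early rises at 6 and 9 h were 1, PSMA5. Fitting time as linear called 6 rows as time-dependent. With each array left out in turn, 25 to 29 rows were time-dependent, 7 to 13 rose and 0 to 2 fell from the first to the second window (7 rises without 3, 15, 18 or 21 h, 1 fall without 6 or 21 h and 2 without 9 h). From the first to the last window 13 to 17 fell and 0 to 1 rose (0 without 0, 3, 15, 24, 27, 30, 33, 36, 39 or 42 h), and within the first 9 h 1 to 4 rose (1 without 0 or 9 h, 4 without 3 h) and 2 to 3 fell. The median correlation among members lay between 0.695 and 0.790 there. The causes of these shifts were not tested. A chip as a block was not run, since no chip is named. No paired analysis was possible because each time point has a single array.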
